A study of Homo sapiens with 6 samples.

Results

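Kinesins are motor proteins that walk along microtubules with energy from ATP. Many of them carry vesicles, organelles and protein complexes through the cytoplasm, usually through light chains or adaptors that hold the cargo, while another set builds the mitotic spindle, moves chromosomes and divides the cell. The mitotic members are made mainly in late S phase, G2 and M phase of dividing cells, and several are studied as drug targets in cancer. The family was taken here as the protein-coding genes with the symbols KIF, KIFC1 to KIFC3 or KLC1 to KLC4, which gave 46 genes of the 44591 listed and of the 19233 that are protein-coding. Of these, 42 encode motor subunits and 4 encode kinesin light chains, the cargo-binding partners of kinesin-1. They were divided by textbook role into 15 mitotic, 21 transport (light chains included), 6 ciliary and 4 other genes. CENPE, a kinetochore kinesin whose symbol does not follow this scheme, was read among the mitotic partners.

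The RNA came from A2780, a human ovarian cancer cell line that is wild type per the labels and grew in serum-containing DMEM. Group 1 was left untreated and group 2 received human recombinant CRMP2 (r-CRMP2), a microtubule-associated protein best known from growing axons, in the medium at 40 ng/ml. Both were collected at 48 h, with 3 libraries each of polyadenylated RNA. The labels do not say whether the 3 libraries of a group came from separate cultures, so the p-values measure the spread between these libraries, which may be technical.

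The libraries held between 21888530 and 25711353 counts. Levels of different genes were compared as TPM, which corrects for gene length, and groups were compared as TMM-scaled CPM (counts relative to a library total that was scaled by the trimmed mean of M-values) with the quasi-likelihood test of edgeR. A standard error (SE) is that of the log2 fold change, taken from the spread of log2 CPM between the libraries of each group and not from the edgeR fit. With 3 libraries in each group an SE is itself uncertain, and a very small one may overstate the precision. A gene is said to have risen or fallen at a Benjamini-Hochberg adjusted p under 0.05 over all 16222 genes tested, and to have passed the fold threshold when its log2 fold change was also at least 1 in size. Of all genes tested, 28.2% rose and 30.1% fell, while 5.12% rose and 8.86% fell past the fold threshold. The scaling matters here, since the median log2 fold change of all genes was -0.03 after TMM scaling but -0.34 when library size alone was used. In these libraries 6 of 8 epithelial markers reached at least 1 TPM in every library, led by the keratins KRT18 and KRT8, whereas CDH1 stayed at or under 0.0882 TPM and WT1 at or under 0.078 TPM. The leukocyte marker PTPRC was at most 0.0504 TPM. The summed level of 6 immune markers was 31.1 to 36.2 TPM in untreated and 79.4 to 80.4 TPM in r-CRMP2 libraries, nearly all of it CD68. That of 8 fibroblast markers was 231.6 to 265 TPM in untreated and 162.7 to 173.4 TPM in r-CRMP2 libraries, mainly COL1A1, and that of 4 endothelial markers 3.61 to 3.94 and 0.649 to 1.08 TPM. The part of these markers in the results was not tested.

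A2780 cells held transcripts of most of the family. In untreated cells KIF26A was the most abundant member at 192.5 ± 15.8 TPM (SD, n = 3), and its libraries did not overlap those of the next gene. KIFC3, KIF20A and KIF22 followed at 119, 116 and 113 TPM, with ranges that overlapped from each gene to the next. KIFC1, KIF5B, KIF23, KIF1C and KIF2C then lay between 66.7 and 76.7 TPM, and neighbours in this order overlapped as well. In all, 21 members reached at least 10 TPM in every library and 11 stayed below 1 TPM in every library. The low-count filter removed 9 members, namely KIF2B, KIF4B, KIF5A, KIF5C, KIF6, KIF19, KIF12, KIF25 and KIF26B. None of these 9 exceeded 15 counts or 0.351 TPM in any library. KIF5A and KIF5C are the neuronal kinesin-1 heavy chains, and of the kinesin-1 motors only KIF5B was present above these levels. KIF4B is a near-identical copy of KIF4A, so reads may be divided between them and the count of KIF4A is uncertain to that extent.

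**Figure D1:**
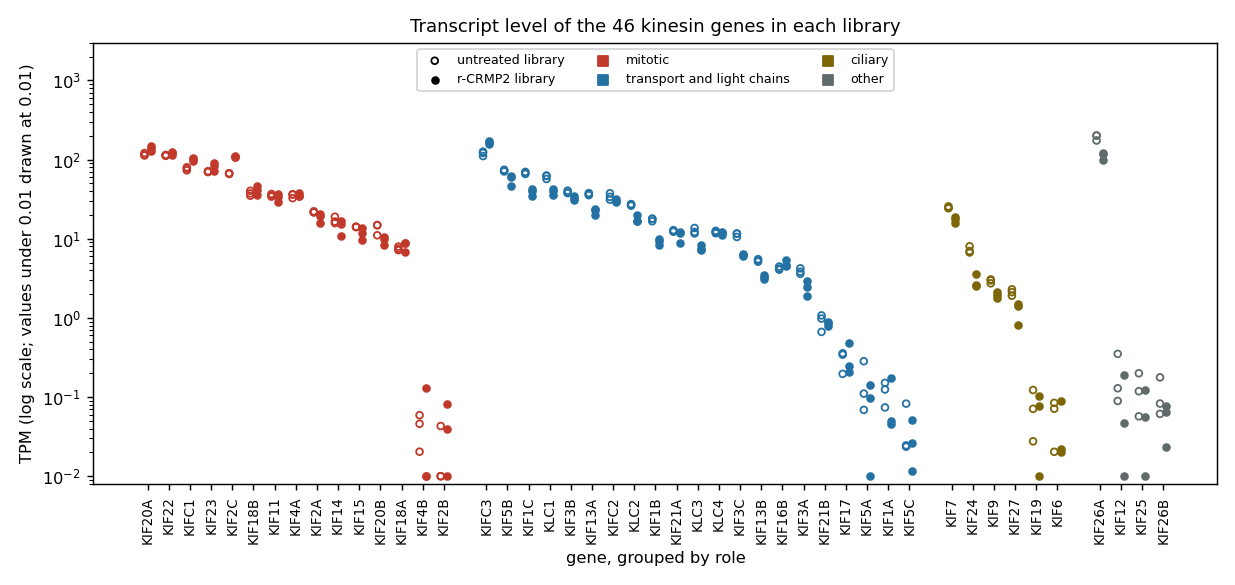
TPM (log scale) of the 46 kinesin genes in each of the 3 untreated (open circles) and 3 r-CRMP2 (filled circles) libraries, grouped by role, with values under 0.01 drawn at 0.01. KIF26A is the highest gene of untreated cells at 192.5 TPM on average, and the 9 genes that the low-count filter removed lie at or under 0.351 TPM in every library.

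The mitotic kinesins moved up relative to the transport kinesins under r-CRMP2. Of the 37 members tested 12 rose, 12 fell and 13 did not pass the test, while 58.2% of all genes tested changed in either direction. Of the 13 mitotic genes tested 9 rose, none fell and 4 did not pass the test, against 28.2% of all genes that rose. Of the 19 transport genes tested 3 rose, 9 fell and 7 did not pass the test, against 30.1% of all genes that fell. All libraries of the 2 groups were apart for 9 mitotic genes, all higher with r-CRMP2, and for 4 higher and 9 lower transport genes, where 30.9% of all genes were apart and higher and 33.3% apart and lower. With library size alone 4 mitotic genes rose and 3 fell, and 1 transport gene rose and 11 fell (13.4% of all genes rose and 52.1% fell), so the split of directions within each role depended on the scaling. The median log2 fold change of the mitotic genes exceeded that of the transport genes by 0.49 with TMM (0.42 against -0.06) and by 0.48 with library size alone (0.11 against -0.37). A change of scaling moves all genes by nearly the same amount, so these 2 differences are not independent of each other. The value for 12 of the 13 mitotic genes was above the transport median. That median fell on KIF1A, a gene of few counts, and moved from -0.06 to 0.07 without r-CRMP2 replicate 2, which narrowed the difference to 0.36. No test was made of the lists themselves, whose members share the same 6 libraries.

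The levels were also summed within each library, and the ratio of these sums does not depend on how libraries are scaled to each other. Summed over their members, the mitotic kinesins made 629.7, 628.7 and 618.0 TPM in the untreated libraries and 771.3, 670.5 and 728.0 TPM in the r-CRMP2 libraries. The transport kinesins made 539.1, 549.6 and 525.5 TPM in untreated libraries and 479.9, 422.8 and 479.5 TPM in r-CRMP2 libraries. The groups did not overlap in either sum. The ratio of mitotic to transport transcripts was 1.17, 1.14 and 1.18 in untreated libraries and 1.61, 1.59 and 1.52 in r-CRMP2 libraries. Its mean went from 1.16 ± 0.0167 (SD, n = 3) to 1.57 ± 0.0465 (SD, n = 3), a factor of 1.35. Without KIF20A and KIFC3, the most abundant gene of each role, the ratio went from 1.22 to 1.98. Summed as TMM-scaled CPM instead, the transport sum was 1285 ± 26.4 in untreated and 1320 ± 49.6 in r-CRMP2 libraries (SD, n = 3), so the direction of that sum depended on the scale, while the ratio went from 0.724 to 0.990.

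**Figure D2:**
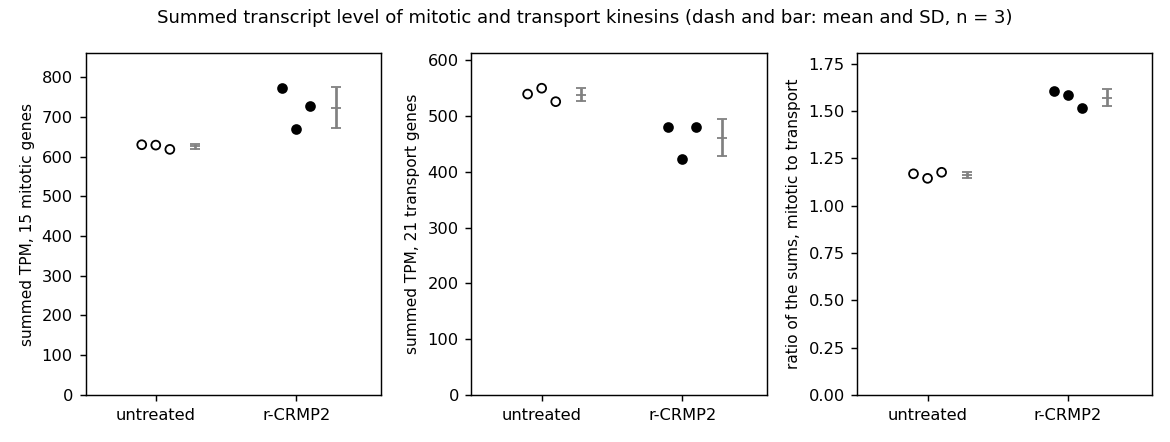
Summed TPM of the 15 mitotic genes (left), of the 21 transport genes (middle) and their ratio (right) in each library, with the mean and SD of 3 libraries beside the points. The ratio lies at 1.14 to 1.18 in untreated and at 1.52 to 1.61 in r-CRMP2 libraries, with no overlap.

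**Figure D3:**
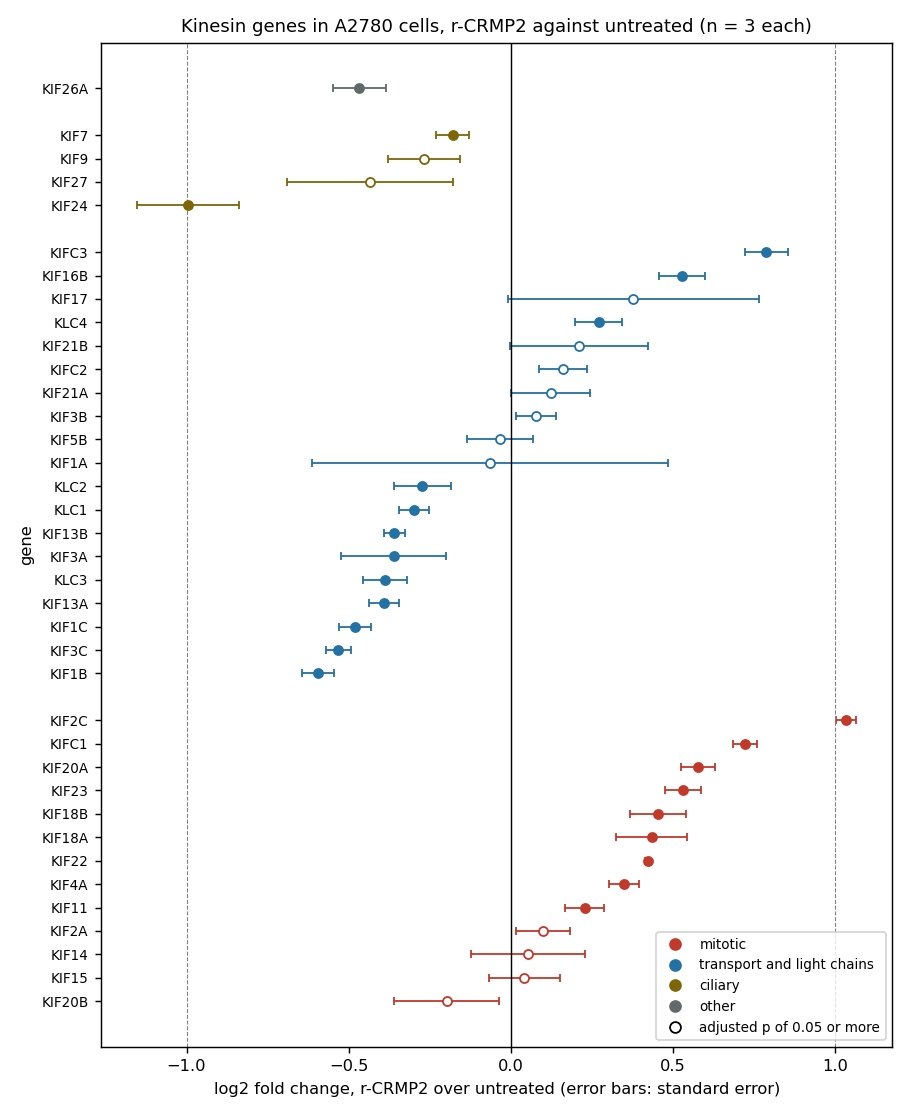
Log2 fold change of the 37 kinesin genes tested, r-CRMP2 over untreated, TMM scaling, with standard errors as bars, filled where the adjusted p was under 0.05 and dashed lines at a 2-fold change. Of the 13 mitotic genes 9 rose, while 9 of the 19 transport genes fell, and KIF2C alone lies past a dashed line with a filled point.

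Among the mitotic kinesins KIF2C rose most. KIF2C (chromosome 1, 45205490 to 45233439 in hg19) encodes the microtubule depolymerase that removes faulty attachments of chromosomes to the spindle. It had 91.7, 87.6 and 89.9 CPM in untreated libraries and 179, 189.9 and 183 CPM in r-CRMP2 libraries. The lowest r-CRMP2 library was far above the highest untreated one. The log2 fold change was 1.03 (SE 0.03, edgeR adjusted p = 5.57e-11), and it was the only member past the fold threshold. With library size alone the rise was 0.72 on the log2 scale and no member passed that threshold upward.

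KIFC1, a minus-end directed motor that focuses spindle poles and clusters extra centrosomes (chromosome 6, 33359313 to 33377701), had 87.0, 87.6 and 81.0 CPM in untreated libraries and 141, 141 and 139 CPM in r-CRMP2 libraries. The 3 r-CRMP2 libraries were nearly equal and stood above all untreated ones. Its log2 fold change was 0.72 (SE 0.04, edgeR adjusted p = 8.82e-09). KIF20A, which brings Aurora B to the central spindle at anaphase (chromosome 5, 137514417 to 137523404), had 175, 158.5 and 163 CPM against 257, 239.7 and 244 CPM. The groups were again separate, with a log2 fold change of 0.58 (SE 0.05, edgeR adjusted p = 2.19e-07). The span of KIF20A overlaps CDC23 on the opposite strand, and strand use in the counting is not given in the sources used here, so reads of the 2 genes may not be told apart.

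KIF22, a chromokinesin that pushes chromosome arms away from the poles (chromosome 16, 29802034 to 29816706), had 113, 112 and 112 CPM in untreated libraries and 150.3, 152 and 149.9 CPM in r-CRMP2 libraries. The libraries of each group were nearly equal. Its log2 fold change was 0.42 (SE 0.0072, edgeR adjusted p = 4.62e-06), but with library size alone the difference of 0.11 did not pass the test (adjusted p = 0.0935).

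The other mitotic genes that rose cover several steps of division. KIF23, the motor of the centralspindlin complex, rose by 0.53 on the log2 scale, and KIF18B and KIF18A, which control microtubule length at the spindle, rose by 0.45 and 0.43. KIF4A, which organizes the anaphase midzone with PRC1, rose by 0.35. KIF11, the motor that drives the spindle poles apart, rose by 0.23 with TMM, whereas its log2 fold change was -0.08 with library size alone and did not pass the test there. KIF18A, KIF18B and KIF4A also did not pass the test with library size alone, at 0.13, 0.15 and 0.04. The 4 genes that did not pass the test with TMM were KIF2A (0.10), KIF14 (0.05), KIF15 (0.04) and KIF20B (-0.20). In KIF14, which acts in cytokinesis, the libraries had 57.7, 48.6 and 46.9 CPM against 59.9, 42.6 and 56.3 CPM, and r-CRMP2 replicate 2 was the lowest of all 6. Without that library KIF14 (0.20, adjusted p = 0.0474) and KIF2A (0.18, adjusted p = 0.0383) passed edgeR's test as higher with r-CRMP2. Without untreated replicate 2, KIF20B passed it as lower (-0.33, adjusted p = 0.00517).

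**Figure D4:**
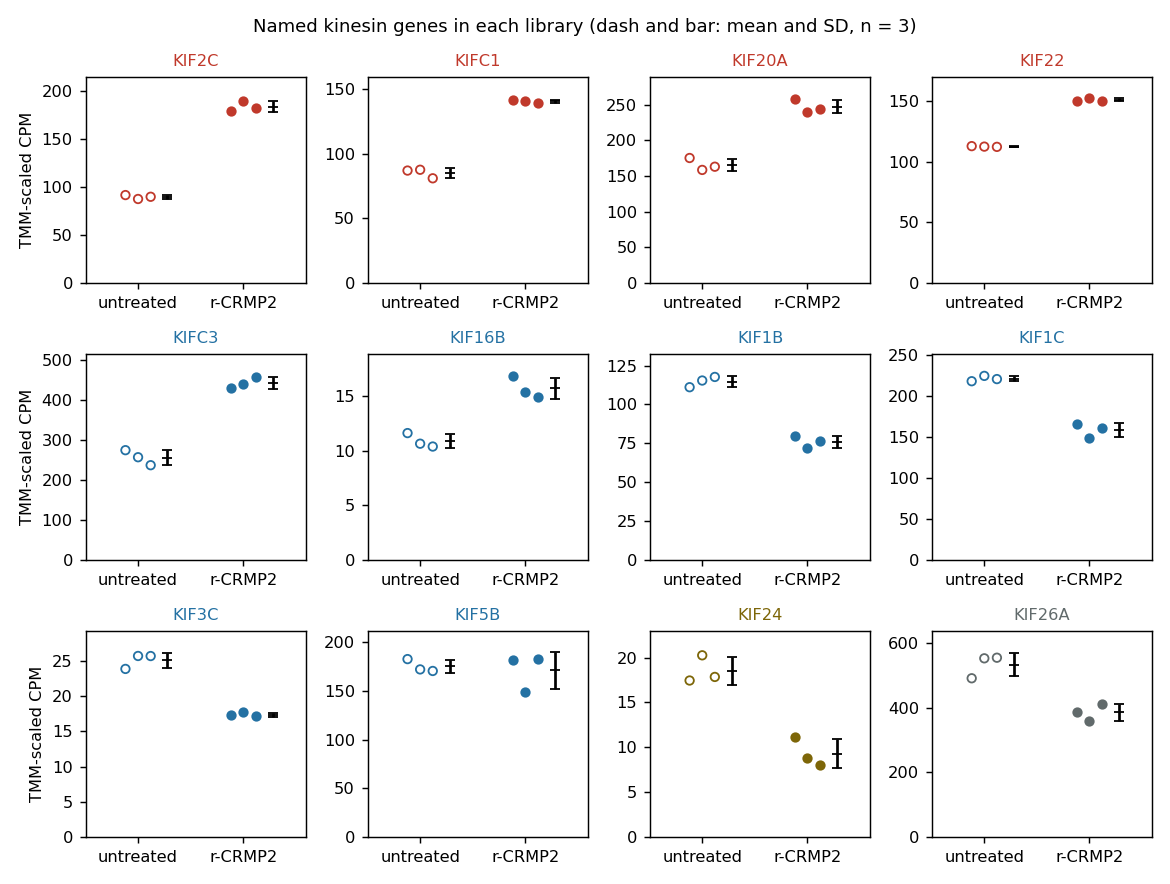
TMM-scaled CPM of 12 kinesin genes in each library (untreated open, r-CRMP2 filled, vertical axes from 0), with the mean and SD of 3 libraries beside the points. KIF2C, KIFC1, KIF20A, KIF22, KIFC3 and KIF16B are higher in every r-CRMP2 library, KIF1B, KIF1C, KIF3C, KIF24 and KIF26A are lower in every one, and the groups overlap for KIF5B.

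Many genes expressed in G2 and M phase carry 2 short promoter elements, the cell cycle genes homology region (CHR), bound by the DREAM and MuvB complexes, and CCAAT boxes, bound by NF-Y. The letters TTTGAA or TTCGAA (CHR) and CCAAT were therefore searched on both strands, from 250 bases before to 50 after each annotated start, in RefSeq promoters of GRCh38.p14. A promoter was available for 36 of the 46 genes, and the motifs do not overlap one another in the stretches printed here. The 10 without one were KIF13B, KIF19, KIF21B, KIF26B, KIF27, KIF5A, KIFC2, KIFC3, KLC2 and KLC4. The transport genes KIFC3 and KLC4, which rose, were thus not searched. The CHR letters were found for 11 of the 15 mitotic genes and for 1 of the 14 transport genes with a promoter (KIF5B), against 19.5% of all 27305 genes. The CCAAT letters were found for 11 of 15 mitotic and 4 of 14 transport genes, against 39.7% of all genes. Both occurred for 10 mitotic genes and 1 transport gene, against 9.02% of all genes. Counted over single windows of 300 bases rather than genes, the shares were 16.4% for CHR and 34.6% for CCAAT. A match is a description of letters and not of a bound site. Only these spellings of the CHR were searched, so a gene without a match may hold a CHR of another spelling.

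The stretches below run from 160 bases before to 30 after a start, and capitals mark the CHR or CCAAT letters read on either strand. By the letters searched, they show the largest mitotic rise with neither match (KIF2C), the largest with both (KIFC1) and a rise with CCAAT alone (KIF20A). They also show a mitotic gene with both that did not pass the test (KIF14), a gene with both that fell (KIF24) and a transport gene that fell and has neither match (KIF1C). The starts of KIFC1 and KIF24 lie downstream of the outermost annotated start of the gene.
KIF2C, chr1:44739677-44739866, plus strand: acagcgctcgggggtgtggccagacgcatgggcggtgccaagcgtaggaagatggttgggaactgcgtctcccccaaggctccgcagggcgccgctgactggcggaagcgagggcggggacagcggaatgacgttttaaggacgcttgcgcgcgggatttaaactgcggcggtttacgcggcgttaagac
KIFC1, chr6:33391663-33391852, plus strand: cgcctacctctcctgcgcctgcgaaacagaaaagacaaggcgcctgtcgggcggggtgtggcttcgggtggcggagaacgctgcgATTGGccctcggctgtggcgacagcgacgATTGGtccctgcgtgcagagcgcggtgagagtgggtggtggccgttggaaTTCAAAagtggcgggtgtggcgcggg
KIF20A, chr5:138178952-138179141, plus strand: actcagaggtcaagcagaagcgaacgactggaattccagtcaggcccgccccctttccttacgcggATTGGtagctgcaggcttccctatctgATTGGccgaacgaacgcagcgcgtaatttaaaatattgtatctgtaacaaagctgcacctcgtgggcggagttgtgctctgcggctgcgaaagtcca
KIF14, chr1:200620722-200620911, minus strand: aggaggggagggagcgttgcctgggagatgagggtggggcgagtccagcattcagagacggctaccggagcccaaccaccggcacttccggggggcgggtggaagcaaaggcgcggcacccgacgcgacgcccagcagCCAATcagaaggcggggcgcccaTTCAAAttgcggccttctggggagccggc
KIF24, chr9:34329239-34329428, minus strand: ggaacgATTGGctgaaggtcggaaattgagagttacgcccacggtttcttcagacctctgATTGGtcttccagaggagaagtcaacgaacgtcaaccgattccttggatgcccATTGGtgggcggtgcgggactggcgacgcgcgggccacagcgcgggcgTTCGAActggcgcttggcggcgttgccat
KIF1C, chr17:4997790-4997979, plus strand: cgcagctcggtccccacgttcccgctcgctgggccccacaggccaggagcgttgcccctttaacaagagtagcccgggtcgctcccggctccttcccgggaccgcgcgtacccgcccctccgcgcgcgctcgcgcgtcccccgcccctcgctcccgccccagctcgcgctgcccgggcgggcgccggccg

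In KIFC1 a pair of CCAAT boxes, printed as ATTGG on this strand, stands before the start and the CHR letters TTCAAA lie just after it. KIF14 has the same order with 1 box, and KIF24 has 3 boxes and a CHR match just after its start. Among the mitotic genes tested, the 10 genes with CHR letters had a median log2 fold change of 0.39, with 7 that rose. The 3 without them (KIF2C, KIF20A and KIF2A) had a median of 0.58, with 2 that rose. Both classes rest on the spellings searched alone, and the part of the CHR in these rises was not tested.

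**Figure D5:**
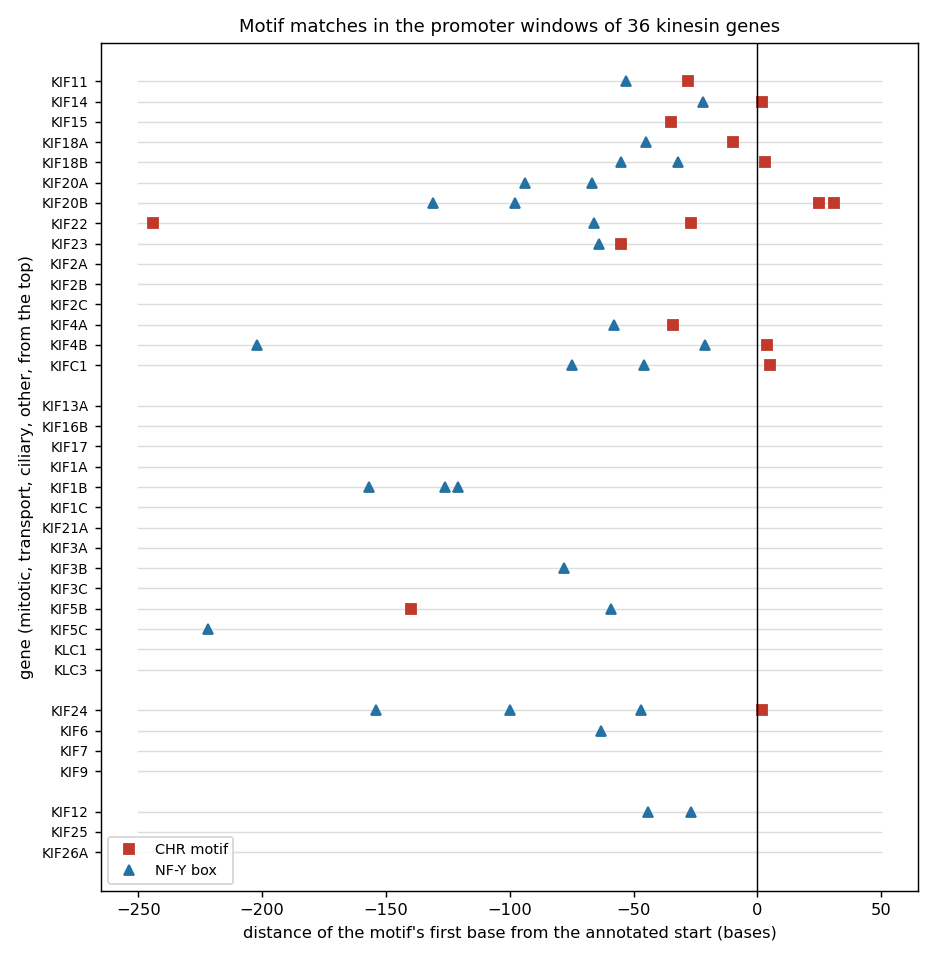
Position of CHR (squares) and CCAAT or NF-Y (triangles) letters relative to the annotated start, in bases, for the 36 kinesin genes with a promoter, each gene on its own line with all of its annotated starts drawn on it. Of the 15 mitotic genes at the top 11 carry a CHR match, most within 60 bases of the start, whereas 1 of 14 transport genes does.

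Most partners of the mitotic motors rose as well. Of 16 partners listed 15 rose and 1 fell, with a median log2 fold change of 0.53 (0.22 with library size alone, where 9 rose and 1 fell). Of all genes tested 28.2% rose and 30.1% fell, and 13.4% and 52.1% with library size alone. AURKB, the kinase of the chromosomal passenger complex that acts on KIF2C, had 60.6, 53.3 and 54.0 CPM in untreated libraries and 113, 126 and 114 CPM in r-CRMP2 libraries. The groups were far apart, with a log2 fold change of 1.07 (SE 0.08, edgeR adjusted p = 2.8e-10). INCENP, its scaffold, rose by 0.80, TPX2, a spindle assembly factor, by 0.72, RACGAP1, which joins KIF23 in centralspindlin, by 0.76, and PRC1 by 0.55. CENPE, the kinesin that carries chromosomes to the spindle equator, was the exception. It had 20.7, 16.1 and 20.6 CPM in untreated libraries and 12.7, 10.1 and 14.2 CPM in r-CRMP2 libraries, with no overlap, and fell by 0.63 on the log2 scale (SE 0.19, edgeR adjusted p = 2.17e-04).

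General markers of G2 and M phase moved with these genes. Of 14 such markers 13 rose and 1 fell, with a median of 0.52 (0.21 with library size alone), and their summed level was 1648 to 1741 TPM in untreated and 2034 to 2179 TPM in r-CRMP2 libraries. Their part in the rise of the mitotic kinesins was not tested. UBE2C, which helps destroy mitotic cyclins, rose by 1.40 and CDK1, the mitotic kinase, by 0.86. CENPF, a kinetochore protein, fell by 0.32 (adjusted p = 0.0216 with edgeR, but 0.215 with DESeq2, 0.121 without untreated replicate 1 and 0.122 without r-CRMP2 replicate 2). Of 14 S-phase markers 6 rose, 2 fell and 6 did not pass the test, with a median of 0.13, which was -0.18 with library size alone. For comparison, 58.2% of all genes changed in either direction, 28.2% upward. RRM2 and CDT1 rose by 1.08 and 0.77, whereas CCNE2 and CDC6 fell by 0.40 and 0.34. In bulk RNA, more cells in G2 and M phase and more of these transcripts per cell cannot be told apart.

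Among the transport kinesins KIFC3 rose most and the kinesin-3 group mostly fell. KIFC3, a minus-end directed motor linked to adherens junctions and the Golgi (chromosome 16, 57792129 to 57836936), had 274, 256.5 and 237 CPM in untreated libraries and 428, 440.4 and 456 CPM in r-CRMP2 libraries. All r-CRMP2 libraries were well above the untreated ones. Its log2 fold change was 0.79 (SE 0.07, edgeR adjusted p = 6.72e-09), and 0.48 with library size alone, where it was the only transport gene that rose.

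KIF16B, which moves early endosomes (chromosome 20, 16252749 to 16554079), had 11.6, 10.6 and 10.4 CPM against 16.8, 15.4 and 14.9 CPM. The groups were separate at this low level, and the log2 fold change was 0.53 (SE 0.07, edgeR adjusted p = 2.11e-04), or 0.22 with library size alone, where it did not pass the test. KLC4, a light chain, had 16.4, 16.5 and 15.5 CPM against 17.7, 20.8 and 19.9 CPM, a log2 fold change of 0.27 (SE 0.07, edgeR adjusted p = 0.0166) that was -0.04 with library size alone. That call was lost without untreated replicate 3 (adjusted p = 0.0647), r-CRMP2 replicate 2 (0.0502) or r-CRMP2 replicate 3 (0.0536).

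The largest falls among the transport genes were those of KIF1B, KIF3C and KIF1C. KIF1B, a kinesin-3 motor for synaptic vesicle precursors and mitochondria (chromosome 1, 10270764 to 10441661), had 111, 115 and 118 CPM in untreated libraries and 79.6, 71.9 and 76.5 CPM in r-CRMP2 libraries. The groups were far apart, and the log2 fold change was -0.59 (SE 0.05, edgeR adjusted p = 1.88e-07). KIF3C, a kinesin-2 motor (chromosome 2, 26149455 to 26205443), had 23.9, 25.7 and 25.7 CPM against 17.3, 17.7 and 17.1 CPM. The r-CRMP2 libraries were almost alike and lower in each case, with a log2 fold change of -0.53 (SE 0.04, edgeR adjusted p = 1.99e-05). KIF1C, which carries dense-core vesicles and integrins (chromosome 17, 4901243 to 4931694), had 218, 224 and 220.4 CPM against 165, 148 and 161 CPM. It was lower in every r-CRMP2 library, with a log2 fold change of -0.48 (SE 0.05, edgeR adjusted p = 2.04e-06).

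By subfamily, 6 kinesin-3 genes of the transport role were tested (KIF1A, KIF1B, KIF1C, KIF13A, KIF13B and KIF16B). Kinesin-3 motors of other roles were not counted here. These 6 had 4 falls, 1 rise and 1 gene that did not pass the test, with a median log2 fold change of -0.37. The median of all genes was -0.03, and 30.1% of them fell. With library size alone 4 of these 6 genes fell and 0 rose, with a median of -0.68. All genes then had a median of -0.34, and 52.1% of them fell. KIF13A and KIF13B, which carry endosomal and membrane cargo, fell by 0.39 and 0.36. Of the 4 light chains KLC3, KLC1 and KLC2 fell by 0.39, 0.30 and 0.27, and KLC4 rose. The call of KLC2 was lost without r-CRMP2 replicate 1 (adjusted p = 0.0635), and that of KLC3 without untreated replicate 2 (0.0638) or r-CRMP2 replicate 3 (0.0505). Their motor KIF5B, the ubiquitous kinesin-1 heavy chain (chromosome 10, 32297938 to 32345371), had 183, 172 and 171 CPM in untreated libraries and 182, 149 and 183 CPM in r-CRMP2 libraries. The groups overlapped, with r-CRMP2 replicate 2 as the lowest library. Its log2 fold change was -0.03 (SE 0.10, edgeR adjusted p = 0.725) with TMM, and -0.34 (adjusted p = 9.22e-04) with library size alone, where it passed as lower.

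Besides KIF3C, the kinesin-2 motor KIF3A also fell. KIF3A, which serves the cilium and many vesicles, changed by -0.36 on the log2 scale (adjusted p = 0.0281), a call that was lost without any one of untreated replicate 2, untreated replicate 3, r-CRMP2 replicate 2 or r-CRMP2 replicate 3, with adjusted p between 0.0517 and 0.147. Its partner KIF3B had a log2 fold change of 0.08 with TMM and -0.23 with library size alone, and the adaptor KIFAP3 had -0.03 (adjusted p = 0.827, edgeR). The other transport genes that did not pass the test were KIF1A (-0.06), KIF21A (0.12), KIFC2 (0.16), KIF21B (0.21) and KIF17 (0.38). Without r-CRMP2 replicate 2, KIF21A passed as higher (0.24, adjusted p = 0.00785), and so did KIFC2 without untreated replicate 2 (0.22, adjusted p = 0.0346) or with RLE size factors (0.18, adjusted p = 0.042). KIF1A and KIF17 stayed below 1 CPM in every library, and their standard errors were 0.55 and 0.39.

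Gene length differed between the roles, with a median deposited length of 4289 bases for the mitotic and 6116 bases for the transport genes tested. Across the 37 members, which share the same 6 libraries and are not independent replicates, Spearman's rho between log2 fold change and length was -0.44. Across all genes tested it was -0.0814. The part of length in the difference between the roles was not tested.

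Of 20 cargo adaptors tested 9 rose, 5 fell and 6 did not pass the test, with 1 rise and 3 falls past the fold threshold (5 rose and 9 fell with library size alone). Of all genes 28.2% rose and 30.1% fell, and 13.4% and 52.1% with library size alone. The adaptor count includes KIF1BP and DPYSL2, described below. TRAK2, which couples mitochondria to kinesin-1, had 25.7, 29.5 and 33.9 CPM in untreated libraries and 9.27, 5.21 and 6.27 CPM in r-CRMP2 libraries. It was several times lower in every r-CRMP2 library, with a log2 fold change of -2.10 (SE 0.27, edgeR adjusted p = 6.77e-10). MAPK8IP3, a scaffold that binds kinesin-1 and dynein, had 85.2, 90.3 and 68.3 CPM against 159, 158 and 177 CPM. Here each r-CRMP2 library was higher, with a log2 fold change of 1.02 (SE 0.13, edgeR adjusted p = 6.73e-09). SPAG9, its close relative, rose by 0.68, and MAPK8IP2, another kinesin-1 scaffold, fell by 1.11 from 3.63, 4.77 and 2.74 CPM to 1.55, 1.77 and 1.83 CPM.

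KIF1BP, named after its values were seen, encodes a protein that binds the motor domain of several kinesins, among them KIF15 and KIF18A, and keeps it off the microtubule. It had 26.3, 32.0 and 34.4 CPM in untreated libraries and 16.8, 15.1 and 14.1 CPM in r-CRMP2 libraries. All r-CRMP2 libraries were lower, with a log2 fold change of -1.01 (SE 0.14, edgeR adjusted p = 9.8e-08). DPYSL2, the gene of CRMP2 itself, whose protein can bind kinesin light chains as an adaptor, had 86.2, 81.3 and 80.8 CPM against 125, 128 and 138 CPM. Every r-CRMP2 library was higher, with a log2 fold change of 0.66 (SE 0.05, edgeR adjusted p = 5.48e-08). The added protein is not measured by RNA sequencing.

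Cytoplasmic dynein is the motor that walks opposite to most kinesins. Of 23 dynein, dynactin and dynein regulator genes tested 10 rose, 4 fell and 9 did not pass the test, with a median of 0.11, and with library size alone 4 rose and 13 fell, with a median of -0.20. The 14 genes that changed with TMM compare with 58.2% of all genes, a similar share. Of all genes 28.2% rose and 30.1% fell with TMM, and 13.4% and 52.1% with library size alone. The largest rises were those of NDE1 (0.86), a dynein regulator needed in mitosis, and DYNLT3 (0.84), a light chain. The largest falls were those of PAFAH1B1 (-0.39), which encodes LIS1, and ACTR1A (-0.30), the filament subunit of dynactin.

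Of the 4 ciliary kinesins tested 0 rose, 2 fell and 2 did not pass the test, where 28.2% of all genes rose and 30.1% fell. So small a group cannot be told from those shares. KIF24, which restrains cilium assembly at the mother centriole (chromosome 9, 34252378 to 34329198), had 17.4, 20.3 and 17.8 CPM in untreated libraries and 11.1, 8.75 and 7.97 CPM in r-CRMP2 libraries. The groups were well separated, and the log2 fold change of -0.99 (SE 0.16, edgeR adjusted p = 8.8e-07) was just short of the fold threshold, which it passed with library size alone at -1.30. KIF24 carries CHR and CCAAT letters in its promoter, printed above, and its span overlaps UBAP1 on the opposite strand.

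KIF7, a regulator of Hedgehog signalling at the tip of the cilium (chromosome 15, 90171201 to 90198682), had 46.6, 44.9 and 47.7 CPM against 40.3, 39.3 and 43.5 CPM. The groups stood close together without overlap, at a log2 fold change of -0.18 (SE 0.05, edgeR adjusted p = 0.0374). The call was lost with DESeq2 (adjusted p = 0.0945), and without any 1 of 5 of the libraries (adjusted p between 0.0554 and 0.13), r-CRMP2 replicate 3 being the exception. With the replicate number as a block its adjusted p was 0.0509. The span of KIF7 overlaps TICRR on the opposite strand, so its count is uncertain. KIF27, a relative of KIF7, had 4.49, 3.63 and 4.06 CPM against 3.28, 2.07 and 3.61 CPM. Its libraries were all below the untreated ones by a narrow margin, at -0.43 (SE 0.26, edgeR adjusted p = 0.0721), and without r-CRMP2 replicate 3 it passed as lower (-0.59, adjusted p = 0.0373). KIF9, a motor of motile cilia, had 4.60, 3.99 and 4.39 CPM against 3.42, 4.10 and 3.31 CPM. These groups overlapped, at -0.27 (SE 0.11, edgeR adjusted p = 0.183). KIF9 also overlaps KLHL18 (506 counts on average) on the opposite strand, so its low count is uncertain.

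KIF26A, an atypical kinesin without ATPase activity that is known from enteric neuron development (chromosome 14, 104605060 to 104647235), fell from the highest level of the family. It had 491.5, 553 and 555 CPM in untreated libraries and 388, 358 and 412 CPM in r-CRMP2 libraries. All r-CRMP2 libraries were below all untreated ones, with a log2 fold change of -0.47 (SE 0.08, edgeR adjusted p = 1.06e-05), or -0.78 with library size alone. In TPM it stood at 174, 202 and 201 in untreated and 116, 97.8 and 119.7 in r-CRMP2 libraries, so that KIFC3, at 166, 156 and 172 TPM, was above it in every r-CRMP2 library and below it in every untreated one.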

How the data were processed

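Polyadenylated RNA of A2780 cells, 3 untreated and 3 r-CRMP2 libraries per the labels, was sequenced as paired ends. The authors deposited, per library, unnormalized read counts on 44591 genes and TPM values, which were recomputed from counts and lengths as a check. Per the submitters' processing notes, FastQC, HISAT2, DESeq2 and the build hg19 were used. The counting tool, annotation and strand setting are not given in the sources used here. Counts (21888530 to 25711353 per library) were tested with edgeR 4.0.16 (quasi-likelihood, limma 3.58.1, R 4.3.3) after TMM scaling and filterByExpr, with Benjamini-Hochberg adjustment over 16222 genes. Each standard error was computed from log2 CPM values of the libraries, with a prior count of 2. The deposited TPM values were used for levels between genes and for sums within a library. No pair of replicates was a duplicate. The script was tested on simulated data with 200 changed genes, far fewer than rose or fell here. It recovered 62.7% of log2 changes of 0.5, 86.2% of 1 and 97.0% of 2, and called 0.07% of unchanged genes. A gene that did not pass the test may thus still have changed. Same-numbered libraries did not deviate together (correlations -0.02, 0.0038 and -0.03), so no pairing was used.

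The members and gene lists were chosen with earlier results of these data known, and list counts and medians carry no test. Full values are given for members past both thresholds, the 3 largest rises and falls and the 2 most abundant genes of the mitotic and transport roles, and all tested ciliary and other members. Of each partner list the 2 largest rises and falls are named, plus CENPE, KIFAP3 and DPYSL2, some with values for each library. KIF14, KIF1BP, TPX2, PRC1 and RACGAP1 lie outside this rule for values and were added after their values were seen. The kinesin-3 grouping was not among the lists planned. Promoters are from RefSeq (GRCh38.p14), while gene coordinates are as deposited in hg19. Of the fibroblast markers 4 rose and 2 fell of 7 tested, of the endothelial markers 1 of 3 fell, of the epithelial markers 1 rose and 1 fell of 6, and of the immune markers 1 of 2 rose. Of all genes tested 28.2% rose and 30.1% fell, and 13.4% and 52.1% with library size alone. With library size alone 0 fibroblast markers rose and 2 fell, and 0 endothelial markers rose and 2 fell. Of the epithelial markers 0 then rose and 3 fell, and of the immune markers 1 rose and 0 fell.
The alternatives tried were leaving out each library in turn, a replicate block, DESeq2 1.42.0, scaling by RLE or by library size alone, testing without the filter or with a minimum of 10 counts per sample, and testing the null of a 2-fold change. A position search in kinesin proteins was planned and not run, since no protein sequences were used here.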

Additional observations from a re-analysis of the deposited data

How the results depend on the processing

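With library size alone 2171 of all genes rose and 8449 fell, 489 and 2553 of them past the fold threshold. Of the mitotic genes 4 rose and 3 fell, with 0 past the fold threshold, 1 transport gene rose, and 4 ciliary genes fell, 1 of them past the fold threshold. The medians then were 0.11 for mitotic, -0.37 for transport, -0.66 for ciliary and -0.78 for other genes. Under this scaling the log2 fold change turned to -0.0822 in KIF11, -0.27 in KIF15, -0.21 in KIF2A, -0.23 in KIF3B and -0.0404 in KLC4.

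Tested against a fold change of 2, 369 of all genes rose and 467 fell, and 0 mitotic, 0 transport, 0 ciliary and 0 other kinesins passed in either direction. With at least 10 counts in every sample 946 of all genes fell past the fold threshold, the transport median was -0.29, the difference between mitotic and transport medians was 0.69, and 1 ciliary gene (KIF24) fell past the fold threshold. KIF1A, on which the transport median sat, and KIF17 were not tested there, and why KIF24 moved past the fold threshold was not tested. Ciliary falls numbered 1 with DESeq2, with RLE size factors, with no low-count filter and with the replicate block, since KIF7 was lost, and KIF24 passed the fold threshold with no low-count filter, making 1. Without the most abundant gene of each role the summed ratio moved by a factor of 1.62 rather than 1.35.

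Leaving out each library in turn gave 9 to 11 rises and 0 to 1 falls of mitotic genes, 2 to 4 rises and 7 to 9 falls of transport genes and 1 to 3 falls of ciliary genes, with 0 to 1 past the fold threshold. The median was 0.38 to 0.43 for mitotic and -0.25 to 0.0672 for transport genes, where the value of 0.0672 came without r-CRMP2 replicate 2, and the difference was 0.36 to 0.67. The replicate block, for which the numbers gave no evident pairing, gave 4456 rises and 4774 falls over all genes, a transport median of -0.13, and no lost call among the named genes other than KIF7.

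The depth leaves the 9 members at or under 15 counts without a test, and counts with no strand given limit the genes that overlap another.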
